A study of Mus musculus with 8 samples.

Results

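The genes described are those of the cytosolic ribosomal proteins, the protein subunits of the ribosomes that translate nuclear messenger RNA. They were chosen by symbol: names that begin with Rps (small subunit) or Rpl (large subunit) followed by a number, with Rpsa and the stalk genes, read from array probe sets that carry 1 gene symbol. The rule matched 48 genes, of which the pseudogene Rps4l was left out, so that 47 of the 12393 named genes on the array remain: 21 of the small subunit and 26 of the large subunit and its stalk. They have 99 of the 22626 probe sets. A probe set is the group of short probes that reads 1 transcript, and where a gene had several, the one with the highest mean over all arrays stands for it. That mean covers every group, so the choice can favour a probe set that is high in only some of them. A further 102 probe sets name a ribosomal protein gene together with other genes or copies and were not assigned to any gene. Rplp1, Rpl5, Rps27a, Rpl3, Rpl10 and Rpl10l had no probe set with their symbol alone, so no value is given for them.

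The cells were CD45+/Sca1+ cells sorted from C57BL/6 mice aged 6 to 8 weeks. CD45, encoded by Ptprc, marks cells that derive from the blood system. Sca1 marks stem and progenitor cells of the mouse, and some mature cells carry it too. There were 4 groups of 2 arrays each, with 1 µg of total RNA per array: cells from bone marrow, cells from muscle of mice with no injury named (called uninjured muscle), cells from muscle damaged with cardiotoxin, a fibre-destroying toxin of snake venom (injured muscle), and cells from muscle damaged in the same way in bone marrow transplanted mice (transplanted injured muscle). All 4 groups share strain, age range and sort, and no group carries a named mutation or transgene. The time after injury, and whether the sorted cells of transplanted mice were of donor or host origin, are not stated in the sources used. The labels do not say that the 2 arrays of a group came from separate animals, so the p-values speak only of the spread between these arrays, and that spread may be technical.

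The arrays themselves differed between the uninjured and the injured groups. Each array had been scaled to the same trimmed mean, yet the 99th percentile of intensity was 4290 to 4934 on the 4 arrays without injury and 6459 to 6927 on the injured 4. The ratio of the 3′ to the 5′ control probe sets of Gapdh, a measure of how complete the labelled RNA was, was 10.7 to 46.9 on the first 4 arrays and 0.808 to 0.882 on the injured 4. Across all probe sets the 2 arrays of a group correlated at 0.929 for bone marrow, 0.837 for uninjured muscle, 0.956 for injured muscle and 0.957 for transplanted injured muscle. Ptprc, the gene of the sorted protein, was between 4924 and 6996 on every array. Marker genes of other cell types moved with the groups as well. The summed intensity of 9 macrophage markers was 3829 to 4469 in bone marrow, 19071 to 35607 in uninjured muscle, 69472 to 75493 in injured muscle and 65872 to 68293 in transplanted injured muscle. That of 8 neutrophil granule markers was 41371 to 51366, 17123 to 30473, 386 to 399 and 635 to 711 in the same order, with 6 of the 8 under 38.4 (the low-value threshold used for testing) on both injured muscle arrays. The sum of 7 fibroblast markers was 130 to 304 in the marrow, 8883 to 31761 and 22521 to 22658 in uninjured and injured muscle, and 4299 to 4589 in transplanted injured muscle. Single macrophage markers did not all follow the sum: their log2 fold changes ran from -1.42 to 4.42 in injured against uninjured muscle. In transplanted injured against uninjured muscle they ran from -3.07 to 5.39, and in each comparison 7 of the 9 were above 0. No marker was at 0. The part of cell makeup, RNA completeness and array scale in the differences described here was not tested. The arrays measure RNA from many cells at once, so a lower share of cells of a type and less RNA per cell cannot be told apart.

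A ribosome has a small subunit, which holds the messenger RNA and reads its codons, and a large subunit, which joins amino acids and carries a flexible stalk that recruits elongation factors. Nearly every ribosomal protein is present in 1 copy per ribosome, and cells make them in step with each other and with ribosomal RNA. In mammals their messenger RNAs start with a run of pyrimidines, the 5′ terminal oligopyrimidine (TOP) tract, through which nutrient and growth signals set how much of each message is translated. In blood-forming tissue the family is known from Diamond-Blackfan anaemia, a failure of red cell production caused by loss of 1 copy of a ribosomal protein gene.

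The transcription start windows were searched for runs of pyrimidines (C or T) near the start. RefSeq promoter sequences (GRCm38.p6) were matched for 42 of the 47 genes. A run of at least 5 C or T letters was found in 27 of the 42 (64.3%), against 34.4% of 27025 genes in the same table. The run was counted from a C at most 10 bases before or after the annotated start, and letters farther upstream were cut off. In Rpl7a and Rps27l below, the run of C and T thus reaches farther upstream than the capitals. Such a run, called a tract here, need not begin at the first base of the message, so it is not by itself a TOP tract. Each window below runs from 20 bases before the annotated start to 15 after it, 5′ to 3′ on the gene's own strand, with the tract in capitals. The first 4 genes were higher in injured muscle than in bone marrow, and the next 4 were lower in transplanted injured muscle than in bone marrow. In the last 4 no such run was counted, although runs of C and T that begin farther away can be seen in some. Of these 4, Rpl37a, Rpl11 and Rpl41 were higher after injury and Rps25 lower.
Rpl7a, chr2:26910787-26910821, plus strand: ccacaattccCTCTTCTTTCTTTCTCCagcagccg
Rps10, chr17:27635230-27635264, minus strand: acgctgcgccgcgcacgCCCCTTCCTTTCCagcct
Rpl38, chr11:114668560-114668594, plus strand: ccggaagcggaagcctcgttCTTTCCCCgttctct
Rps27l, chr9:66946066-66946100, plus strand, the upstream of 2 annotated starts: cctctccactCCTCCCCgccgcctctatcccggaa
Rps6, chr4:86857353-86857387, minus strand: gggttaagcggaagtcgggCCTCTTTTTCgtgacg
Rpl12, chr2:32961692-32961726, plus strand: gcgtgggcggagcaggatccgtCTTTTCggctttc
Rpl14, chr9:120571497-120571531, plus strand: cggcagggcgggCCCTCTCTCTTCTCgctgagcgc
Rpl22l1, chr3:28805488-28805522, plus strand: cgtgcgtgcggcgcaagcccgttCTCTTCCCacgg
Rpl37a, chr1:72711240-72711274, plus strand: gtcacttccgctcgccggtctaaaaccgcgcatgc
Rpl11, chr4:136053379-136053413, minus strand: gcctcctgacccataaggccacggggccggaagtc
Rpl41, chr10:128549154-128549188, minus strand: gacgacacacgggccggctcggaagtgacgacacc
Rps25, chr9:44407694-44407728, plus strand: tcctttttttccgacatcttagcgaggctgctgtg

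Tracts therefore lay near the annotated start of genes that were higher and of genes that were lower after injury. Among members whose 4 injured arrays all lay above the other 4 arrays, 11 of the 18 with a promoter entry had a tract, against 4 of 7 among those that all lay below and 11 of 16 among those that overlapped. In the whole promoter window, from 250 bases before to 50 after the start, the letters CCGGAAG, the core that ETS family factors bind, occurred on either strand in 21 of the 42 members (50%) and in 9.93% of all genes. The letters AAGATGGC, the core bound by the factor YY1, occurred in 4 members (9.52%) against 3.19% of all genes, and TATAAA in 6 (14.3%) against 15.7%. These matches describe the letters only.

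The family was among the brightest on every array. The median intensity of the 47 genes was 4569 and 5705 in the marrow, 4687 and 5375 in uninjured muscle, 7793 and 6887 in injured muscle and 6986 and 7028 in transplanted injured muscle. The 4 injured arrays thus lay above the other 4 with no overlap. The median rank of the members among all probe sets of an array was between the 98.96 and the 99.26 percentile, and here the injured arrays overlapped the others. The members gave 2.68% and 3.17% of the summed intensity in the marrow, 2.70% and 2.97% in uninjured muscle, 3.80% and 3.59% in injured muscle, and 3.33% and 3.41% in transplanted injured muscle.

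The direction of the family's median depended on how the arrays were scaled. With the deposited scaling the median log2 fold change of the 46 members tested was 0.44 for injured against uninjured muscle and 0.41 for injured muscle against bone marrow, while after quantile normalization, which gives all arrays the same distribution, it was -0.062 and -0.22, and after cyclic loess 0.023 and -0.14. For transplanted injured muscle the deposited scaling gave 0.24 against bone marrow and 0.36 against uninjured muscle, quantile normalization -0.20 and -0.088, and cyclic loess -0.16 and 0.021. Centring each array on its median gave 0.59 for injured and 0.64 for transplanted injured against uninjured muscle; it moved the median of all tested probe sets from -0.14 to 0.00 and from -0.19 to 0.09. After quantile normalization and cyclic loess the median of all tested probe sets was -0.082 and -0.047 for injured against uninjured muscle. Against bone marrow it was -0.13 and -0.044. For transplanted injured muscle it was -0.11 and -0.030 against bone marrow, and -0.068 and -0.033 against uninjured muscle. The members' median lay above it in injured against uninjured muscle under each scaling. The members lay below it in both comparisons with bone marrow after these normalizations. The family's level relative to other genes therefore has no settled direction across the comparisons. Differences between members on the same arrays are described below, and the calls that lasted under all of these scalings are named after the comparisons.

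**Figure D1:**
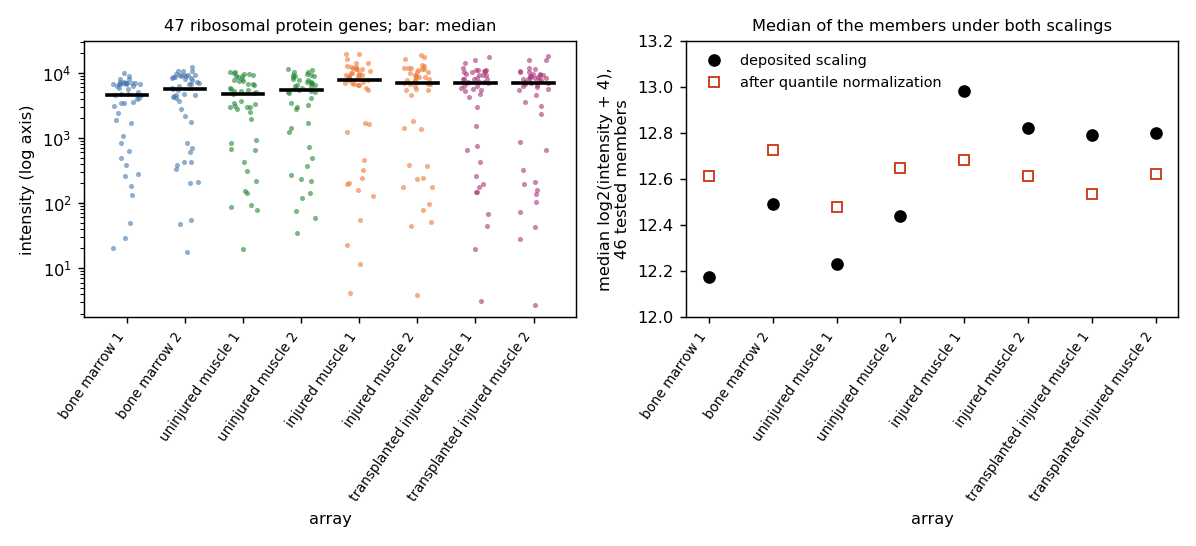
Left, intensity on a log axis of the 47 ribosomal protein genes on each of the 8 arrays (1 point a gene, bar at the median). Right, the median log2(intensity + 4) of the 46 tested members per array: with the deposited scaling the injured arrays sit between 12.79 and 12.99 and the others between 12.17 and 12.49, but after quantile normalization the groups overlap, from 12.48 to 12.73.

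Members differed in whether they moved at all. A test of any difference among the 4 groups (limma moderated F, adjusted over all 16285 tested probe sets, threshold 0.05) called 21 of the 46 tested members, against 37.6% of all tested genes. Without 1 injured muscle array it called 12 or 13, and without transplanted injured array 1 it called 13. On the log2 scale the group means of Rpl37a, Rpl12, Rps27l and Rps6 were the most spread of the tested members, with SDs over the 4 groups of 2.09, 1.98, 1.07 and 1.00. Rps18, Rpl13a, Rpl6 and Rps20 were the least spread, at 0.10, 0.10, 0.12 and 0.12. Rps18, a protein of the small subunit head, read 6748 and 8605 in the marrow, 8087 and 9250 in uninjured muscle, 9154 and 8676 in injured muscle, and 8147 and 9041 in transplanted injured muscle. The injured muscle arrays lay just above those of bone marrow and the other groups overlapped. Rpl13a lay between 6953 and 9677 on all 8 arrays, with the transplanted arrays below those of uninjured and of injured muscle. Neither gene passed in any comparison with the deposited scaling, but after quantile normalization Rps18 was called lower in both injured groups against uninjured muscle, and Rpl13a in both against bone marrow and in transplanted injured against uninjured muscle. In 21 members (45.7%) all 4 injured arrays lay above all 4 others, where 14.8% of all genes did so, and in 7 members (15.2%) all 4 lay below, against 24.1% of all genes. The 7 were Rpl12, Rpl14, Rpl22l1, Rpl37, Rps25, Rps3 and Rps6.

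**Figure D2:**
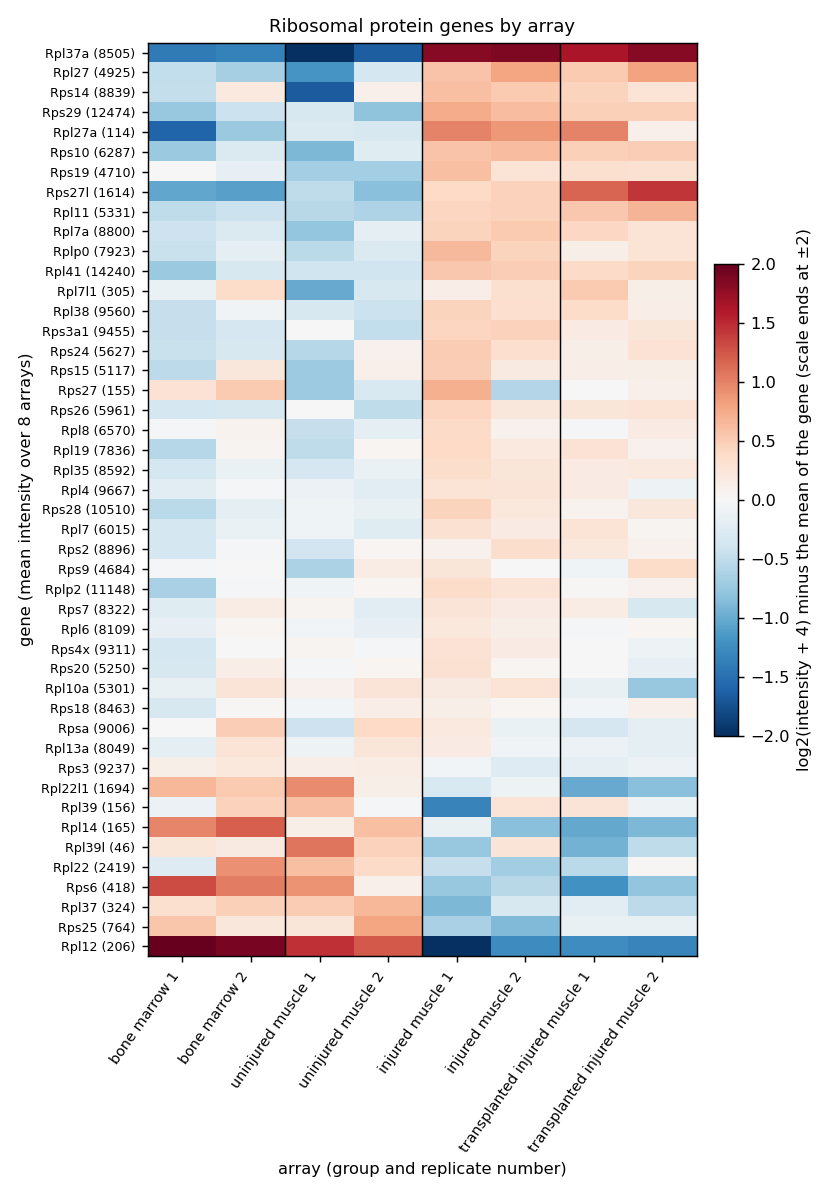
Each line is 1 of the 46 tested genes, with its mean intensity in brackets, and each column an array; colour gives log2(intensity + 4) minus the mean of the gene, red above and blue below, with the scale ending at 2 in either direction. Genes are ordered by the log2 fold change of injured against uninjured muscle under the deposited scaling, from Rpl37a (4.03) to Rpl12 (-3.42); after quantile normalization the median of the members is -0.062, so the general shift to red does not last, but both ends do.

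In injured against uninjured muscle, 13 of the 46 tested members rose and 3 fell (limma, adjusted p under 0.05), where 8.77% of all tested genes rose and 15.1% fell. The 13 were Rpl37a, Rps29, Rpl11, Rps19, Rpl41, Rplp0, Rpl27, Rpl7a, Rps10, Rps27l, Rpl38, Rps3a1 and Rpl35, and the 3 that fell were Rpl12, Rps25 and Rpl37. Both subunits were represented: 5 of 21 small subunit members rose and 1 fell, and 8 of 25 large subunit and stalk members rose and 2 fell, with the same median of 0.44. Against these, the median over all tested genes was -0.25, and 35 of the 46 members had a fold change above 0. After quantile normalization 6 rose and 6 fell, and after cyclic loess 8 rose and 5 fell. Here and below, no shares of all genes are given under these other scalings. Such counts are therefore not read against other genes. The counts also rest on single arrays: without injured muscle array 1 they were 3 and 1, without injured array 2 they were 6 and 1, and without uninjured array 2 there were 5 that fell. Rpl11, Rpl37a, Rps29 and Rpl12 passed the test whichever array was left out.

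Rpl37a, a small zinc-binding protein of the large subunit, differed most by the probe set that stands for it. It read 1695 and 1760 in the marrow, 684 and 1438 in uninjured muscle, 16058 and 16482 in injured muscle and 13978 and 15949 in transplanted injured muscle. All injured arrays lay above all others. The log2 fold change of injured against uninjured muscle was 4.03 ± 0.31 (SE; adjusted p = 0.000595), a 16.3-fold rise. The size belongs to this probe set: a second one for Rpl37a, ending in _x_at, read 4421 and 6426, 6150 and 5919, 10196 and 10129, and 8373 and 8771 in the same order. It too had all injured arrays above the rest, at a much smaller ratio, with a log2 fold change of 0.75 for injured against uninjured muscle (limma adjusted p = 0.0268). On each bone marrow and uninjured muscle array this second probe set was the brighter, so the first stands for the gene only through its injured values. In transplanted injured against uninjured muscle the second did not pass, at 0.51 (adjusted p = 0.0802).

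The 3 members with the highest mean intensity were Rpl41, Rps29 and Rplp2, although brightness also depends on the probes and sets no order of RNA amounts among genes. Rpl41, the shortest ribosomal protein, read 8100 and 10776 in the marrow, 10212 and 10275 in uninjured muscle, 19537 and 19017 in injured muscle and 17588 and 18417 in transplanted injured muscle. The injured arrays stood above the others, and Rpl41 rose by 0.91 ± 0.16 on the log2 scale after injury (SE; adjusted p = 0.00621), a call lost without injured muscle array 1. Rps29, a zinc-binding protein of the small subunit, read 6754 and 8482, 9220 and 6554, 19194 and 17641, and 16007 and 15939 in the same group order. It too had no overlap between injured and other arrays, with a rise of 1.24 ± 0.19 (adjusted p = 0.00463). After quantile normalization the injured against uninjured calls for Rpl41 and Rps29 were lost.

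The stalk is built of Rplp0, which anchors it, and the paired proteins Rplp1 and Rplp2, and it rests on a base that includes Rpl12. Its measured members did not move together. Rplp0 read 5570 and 6662 in the marrow, 5227 and 6234 in uninjured muscle, 11884 and 10321 in injured muscle and 8274 and 9216 in transplanted injured muscle. The injured arrays lay above the others, and injured muscle exceeded uninjured muscle by 0.96 ± 0.18 (adjusted p = 0.00802), a 1.94-fold rise that was lost without injured array 1. Rplp2 read 6971 and 10666, 10324 and 11222, 14086 and 13174, and 11170 and 11575. Its injured and uninjured muscle arrays did not overlap, but the difference of 0.34 did not pass (adjusted p = 0.236); against bone marrow injured muscle was higher by 0.66 (adjusted p = 0.0397; lost without bone marrow array 1 or any of the 4 injured arrays). Rpl12 read 497 and 426 in the marrow, 314 and 266 in uninjured muscle, 11.6 and 44.5 in injured muscle and 44.8 and 42.5 in transplanted injured muscle. All 4 injured arrays were far below the rest, near the threshold of 38.4 for low values, and the fall was -3.42 ± 0.52 (adjusted p = 0.00415). The injured muscle mean of 28.1 ± 23.3 (SD, n = 2) was under that threshold, and whether it was above background is unknown, so no fold is given.

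Rpl11 and Rpl5 join the 5S ribosomal RNA into a particle of the large subunit that can also bind Mdm2, the ubiquitin ligase of p53. Rpl11 read 3514 and 3695 in the marrow, 3375 and 3256 in uninjured muscle, 6750 and 6826 in injured muscle and 7215 and 8012 in transplanted injured muscle. Its spread within groups was small and the injured arrays were clear of the others. It rose by 1.03 ± 0.16 (adjusted p = 0.00466), 2.05-fold, in injured against uninjured muscle. The call for Rpl11 also held after quantile normalization and cyclic loess in every injured group against uninjured muscle, but not in injured muscle against bone marrow. Mdm2 itself, in the list of regulators, was at 110 ± 27.1, 131 ± 3.67, 621 ± 47.9 and 1229 ± 383 (SD, n = 2) in bone marrow, uninjured, injured and transplanted injured muscle, a log2 rise of 2.20 ± 0.35 in injured against uninjured muscle (adjusted p = 0.00465).

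Several members are known to be mutated in Diamond-Blackfan anaemia. Rpl11 is 1 of them, and Rps19, Rps10, Rps24, Rps26 and Rps7 are described here; the disease list is longer, so no count over it is given. Rps19, the gene most often mutated in that disease, read 4549 and 4038 in the marrow, 2805 and 2805 in uninjured muscle, 6867 and 5416 in injured muscle and 5626 and 5572 in transplanted injured muscle. Uninjured muscle was lowest and no injured array fell under a bone marrow array. The rise in injured against uninjured muscle was 1.12 ± 0.19 (adjusted p = 0.00559), lost without injured array 1. Rps10 read 3488 and 4780, 3125 and 4910, 8691 and 8954, and 8126 and 8222, with a rise of 1.17 ± 0.25 (adjusted p = 0.0129) that was lost without either injured array and after quantile normalization. Rps24, Rps26 and Rps7 did not pass in this comparison, with log2 differences of 0.66, 0.57 and 0.30 (adjusted p = 0.0706, 0.07 and 0.329).

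Rps6, the small subunit protein that S6 kinase phosphorylates when the mTOR pathway is active, went the other way. It read 851 and 699 in the marrow, 647 and 370 in uninjured muscle, 202 and 232 in injured muscle and 146 and 197 in transplanted injured muscle. All 4 injured arrays were below all others. Against bone marrow the difference was -1.81 ± 0.37 in injured muscle (adjusted p = 0.0081; lost without injured array 1) and -2.16 in transplanted injured muscle (adjusted p = 0.00365). Against uninjured muscle, the untransplanted difference of -1.16 stood at an adjusted p of 0.05 and did not pass. Rpsa, a surface protein of the small subunit that also acts as a laminin receptor, read 8799 and 12340, 6615 and 11570, 10075 and 8003, and 6986 and 7658. Its groups overlapped except that both transplanted arrays lay under the other marrow and injured arrays, and its injured against uninjured difference was 0.04. Rps3, at the messenger RNA entry of the small subunit, was 10004 and 10658 in bone marrow and 8845 and 7655 in injured muscle. Its difference from uninjured muscle of -0.29 did not pass (adjusted p = 0.164), nor did Rps3 pass in any other comparison with the deposited scaling. After quantile normalization and after cyclic loess it was called lower in both injured groups against both uninjured groups, and Rpsa in both injured groups against bone marrow.

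**Figure D3:**
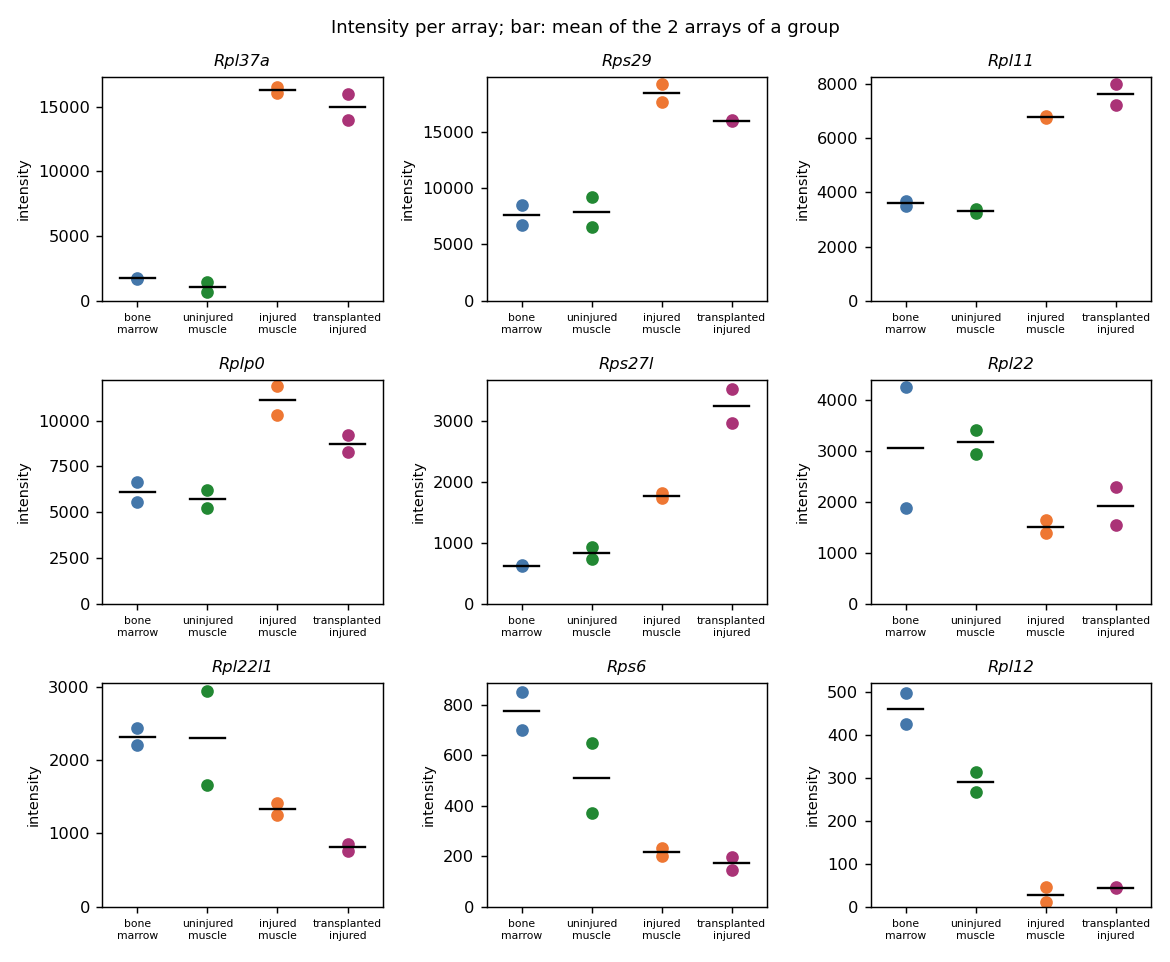
Intensity (linear axis from 0) of 9 ribosomal protein genes on each array, with a bar at the mean of the 2 arrays of a group, under the deposited scaling. Rpl37a, Rps29, Rpl11 and Rplp0 are higher on the injured arrays, Rps27l highest in transplanted injured muscle, and Rpl22l1, Rps6 and Rpl12 lowest on the injured arrays; after quantile normalization the injured against uninjured calls of Rpl37a, Rpl11, Rps27l and Rpl12 remained and those of Rps29 and Rplp0 were lost.

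Several ribosomal proteins have a second gene, a paralogue, that is used in particular tissues or states. Rps27l, a paralogue of Rps27 and a known target of p53, had 4 groups that stood apart from each other by the probe set that stands for it. It read 637 and 612 in the marrow, 923 and 735 in uninjured muscle, 1725 and 1808 in injured muscle and 2954 and 3520 in transplanted injured muscle. Of all genes, 23.7% were higher without overlap in uninjured muscle than in bone marrow, and 25.3% in transplanted than in untransplanted injured muscle. In Rps27l no 2 neighbouring groups overlapped by this probe set. Injured exceeded uninjured muscle by 1.10 ± 0.24 (adjusted p = 0.0149, 2.14-fold; lost without either injured array), transplanted injured exceeded uninjured muscle by 1.96 (adjusted p = 0.00136, 3.90-fold), and neither the step from bone marrow to uninjured muscle (0.40, adjusted p = 0.425) nor that from injured to transplanted injured muscle (0.87, adjusted p = 0.254) passed. Rps27 itself was dim, with a mean of 155 over the 8 arrays, and its injured against uninjured difference of 0.58 did not pass (adjusted p = 0.367). By each of the other probe sets of Rps27l, 1 pair of neighbouring groups overlapped. In 1 it was bone marrow with uninjured muscle, in the other uninjured with injured muscle. The 3 probe sets of Rps27l had the same sign but not the same size. In injured against uninjured muscle the log2 fold changes ran from 0.08 to 1.10 and 1 of the 3 passed, in injured muscle against bone marrow they ran from 0.47 to 1.49 and 2 passed, and in transplanted injured against uninjured muscle they ran from 0.89 to 1.96 and all 3 passed.

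Rpl22 binds RNA and takes part in lymphocyte development, and Rpl22l1 is its paralogue, whose RNA Rpl22 represses. Rpl22 read 1872 and 4251 in the marrow, 3420 and 2940 in uninjured muscle, 1636 and 1391 in injured muscle and 1549 and 2293 in transplanted injured muscle. Bone marrow array 1 lay among the injured arrays, and the injured against uninjured difference of -1.07 did not pass (adjusted p = 0.0749). Rpl22l1 read 2442 and 2204, 2949 and 1669, 1247 and 1423, and 764 and 857. Every injured array was under every other array, and the transplanted arrays were lowest of all. Transplanted injured muscle was below bone marrow by 1.52 on the log2 scale, as a difference of -1.52 ± 0.30 (adjusted p = 0.00735), and below uninjured muscle with -1.45 (adjusted p = 0.0096). Both calls were lost without transplanted array 1. The differences of the gene and its paralogue had the same sign in injured against uninjured muscle.

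The other paralogues were dim or did not pass. Rpl7l1, which resembles Rpl7, had a mean of 305 over the arrays and differed by 0.89 between injured and uninjured muscle (adjusted p = 0.11), and Rpl7 itself by 0.40 (adjusted p = 0.127). Rpl39l, a form of Rpl39 best known from the testis, read 49.9 and 47.6 in the marrow, 92.3 and 58.5 in uninjured muscle, 22.9 and 50.8 in injured muscle and 19.8 and 28.2 in transplanted injured muscle. It was at least 1.83-fold lower in transplanted injured than in uninjured muscle (log2 fold change -1.49 ± 0.49, adjusted p = 0.0495), a call lost without either marrow array, uninjured array 1 or either transplanted array. Rpl39 did not pass in injured against uninjured muscle, with a difference of -0.80 (adjusted p = 0.302), and nor did Rps4x, with 0.22 (adjusted p = 0.338). Rpl3l, the form of Rpl3 in skeletal and heart muscle, was the dimmest member and was not tested. It read 20.5 and 17.6 in the marrow, 20.0 and 35.1 in uninjured muscle, 4.10 and 3.85 in injured muscle and 3.09 and 2.74 in transplanted injured muscle, all below the threshold for testing.

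Of the remaining members that passed in injured against uninjured muscle, the large subunit proteins Rpl27 and Rpl7a rose by 1.45 ± 0.28 (adjusted p = 0.00942) and 0.97 ± 0.20 (adjusted p = 0.0126). Rpl27 read 3109 and 2756 in the marrow, 1936 and 3454 in uninjured muscle, 6529 and 7623 in injured muscle and 6325 and 7665 in transplanted injured muscle. Rpl7a read 6318 and 6901, 4927 and 7361, 11478 and 12070, and 11181 and 10165. In both the injured arrays were clear of the others, and both calls were lost without either injured muscle array. Rpl38, known for its part in translating Hox messages, rose by 0.76 (adjusted p = 0.0172), Rps3a1 by 0.71 (adjusted p = 0.0259) and Rpl35 by 0.53 (adjusted p = 0.0425), all 3 lost without either injured array. The Rps3a1 call was also lost without uninjured array 2, and the Rpl35 call without uninjured array 1 or either transplanted array. Rps14, in the small subunit platform, had far apart arrays in uninjured muscle, at 2532 and 8643, against 12193 and 11556 in injured muscle. Its difference of 1.34 ± 0.49 did not pass (adjusted p = 0.078).

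The members that fell, beside Rpl12, were Rps25 and Rpl37. Rps25, a small subunit protein that some viral and cellular internal entry sites need, read 1054 and 833 in the marrow, 848 and 1242 in uninjured muscle, 454 and 386 in injured muscle and 645 and 647 in transplanted injured muscle. The injured muscle arrays were lowest, and the change was -1.29 ± 0.30 (adjusted p = 0.018). Rpl37 read 381 and 424, 432 and 484, 160 and 242, and 258 and 209, with a change of -1.20 ± 0.33 (adjusted p = 0.032). Both calls were lost without either injured array, and that of Rpl37 also without either transplanted array.

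The comparisons with bone marrow used the same injured arrays, and those with uninjured muscle the same uninjured arrays, so they are not independent of each other. In injured muscle against bone marrow 17 members were higher and 5 lower, where 12.6% of all genes were higher and 17.2% lower; the median was 0.41 against -0.27 over all genes. After quantile normalization 3 were higher and 8 lower, and after cyclic loess 4 and 8, again without shares of all genes under those scalings. Rpl37a was higher by 3.23 (adjusted p = 0.000375), and Rpl12 was lower with -4.08 (adjusted p = 0.00116), a size that rests on the same low readings. Rps27l was higher by 1.49 (adjusted p = 0.00322). Rpl27a, a dim probe set at 28.8 and 55.6 in the marrow, 78.1 and 75.7 in uninjured muscle, 196 and 178 in injured muscle and 195 and 103 in transplanted injured muscle, was higher by 2.11 ± 0.44 (adjusted p = 0.00952; lost without bone marrow array 1 or either injured array). Rpl14, at 282 and 328 in bone marrow and 127 and 76.9 in injured muscle, was lower with -1.58 (adjusted p = 0.0151; lost without either marrow array or injured array 2), and Rps6, Rps25 and Rpl37 completed the 5 that were lower. Without injured array 1 the counts were 5 and 2, without injured array 2 they were 6 and 2, and without bone marrow array 1 they were 7 and 3. Without bone marrow array 2, or without either transplanted array, 3 were lower. Rpl11, Rpl12, Rpl37a, Rpl41, Rps27l and Rps29 passed whichever array was left out.

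In transplanted injured muscle against bone marrow 10 members were higher and 4 lower, where 12% of all genes were higher and 19.5% lower, with a median of 0.24 against -0.32 over all genes. After quantile normalization, as after cyclic loess, 4 were higher and 12 lower. Rps27l was higher by 2.36 ± 0.24 (adjusted p = 0.000449), 5.14-fold, and Rpl37a by 3.11 (adjusted p = 0.000428). Rpl12 was lower with -3.28 (adjusted p = 0.0027), Rps6 with -2.16 and Rpl14 with -2.05 (adjusted p = 0.00493), the last read at 66.9 and 73.6 in transplanted injured muscle. Rpl22l1 was the fourth that was lower. All 10 that were higher were also higher in injured muscle against bone marrow. Without bone marrow array 1, or without either transplanted array, 6 were higher.

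In transplanted injured against uninjured muscle 11 members were higher and 5 lower, where 10.5% of all genes were higher and 20.8% lower, with a median of 0.36 against -0.31 over all genes. After quantile normalization 5 were higher and 10 lower, after cyclic loess 7 and 8, and after median centring 21 and 3. Rpl37a was higher by 3.91 (adjusted p = 0.000396) and Rpl11 by 1.20 (adjusted p = 0.00193), and Rpl12 was lower with -2.62 (adjusted p = 0.0078; lost without transplanted array 2). The other 4 that were lower were Rps6, Rpl14, Rpl22l1 and Rpl39l. All 11 that were higher were among the 13 of injured against uninjured muscle, which added Rpl35 and Rps3a1. Without transplanted array 1 the counts were 7 and 1, and without transplanted array 2 they were 6 and 1.

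Across the 4 comparisons of an injured with an uninjured group, Rpl11, Rpl27, Rpl37a, Rpl41, Rpl7a, Rps10, Rps27l and Rps29 were higher in each and Rpl12 lower in each. Of these, Rpl37a and Rps27l remained higher and Rpl12 lower in all 4 under the deposited, quantile, cyclic loess and median-centred scalings. Rpl11 did so except in injured muscle against bone marrow after quantile normalization and cyclic loess. Other calls lasted under all of these scalings in part of the comparisons. Rps19 and Rpl27 remained higher in both injured groups against uninjured muscle, and Rpl27a in both against bone marrow. Rps25 remained lower in injured muscle against both uninjured groups, and Rpl22l1 in transplanted injured muscle against both. Rps6 and Rpl14 remained lower in both injured groups against bone marrow, and Rps6 also in transplanted injured against uninjured muscle. Each call rests on a probe set chosen by a mean that includes the injured arrays, which can favour a rise after injury. In Rpl37a, Rps10 and Rps29 another probe set was brighter in uninjured muscle. That of Rpl37a did not pass in transplanted injured against uninjured muscle. Those of Rps10 and Rps29 did not pass for either injured group against uninjured muscle.

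No member passed between the groups without injury. In uninjured muscle against bone marrow limma called 0 of 46 members higher and 0 lower, where 5.85% of all genes were higher and 1.4% lower. Before adjustment (p under 0.05), the counts were 0 higher and 2 lower, against 1174 and 894 of all 9505 tested genes. The median difference was -0.02, and the groups did not overlap in 5 members that were above and 9 that were below, against 23.7% and 22% of all genes. The 2 were Rps19, at -0.61 ± 0.19 (unadjusted p = 0.0112, adjusted p = 0.114), and Rpl37a, at -0.80 ± 0.31 (unadjusted p = 0.0347, adjusted p = 0.214). After quantile normalization Rps19 passed as the only call. Without uninjured muscle array 2 there were 2 lower calls. Array 2 of bone marrow read above array 1 in 38 of the 46 members, with a median gap of 0.23 on the log2 scale, against gaps of 0.10, -0.10 and 0.03 in the other groups.

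Transplanted and untransplanted injured muscle were compared directly as well. Limma called 0 of 46 members higher and 0 lower, where 0.0421% of all genes were higher and 0.274% lower. Before adjustment (p under 0.05), 1 was higher and 2 were lower, against 229 and 699 of all 9505 tested genes. With the deposited scaling the median was -0.14, and 10 of the 46 members were above 0, where 49.7% of all genes were. After quantile normalization the members' median log2(intensity + 4) was 12.68 and 12.62 on the injured muscle arrays. On the transplanted injured arrays it was 12.53 and 12.62, so these array medians overlapped. The arrays of the 2 groups did not overlap in 3 members that were above and 23 that were below in transplanted mice, against 25.3% and 26.5% of all genes. The higher one was Rps27l, at 0.87 ± 0.24 (unadjusted p = 0.00708, adjusted p = 0.254). The call for Rps27l depended on the fit: its adjusted p was 0.00374 when the spread was estimated from the 4 injured arrays alone and 0.0166 with array weights. The lower ones were Rpl10a, at -0.68 (unadjusted p = 0.0244), and Rpl22l1, at -0.72 (unadjusted p = 0.0447). With the 4 injured arrays alone Rpl22l1 passed (adjusted p = 0.0127), as did Rps25, at 0.62 (adjusted p = 0.0392).

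The members' own probe sets were set against each other to see how far a gene's value rests on the probe set that stands for it. Of all 90 tested probe sets of the family, 28 rose and 7 fell in injured against uninjured muscle, against 12.1% and 13.9% of all tested probe sets. Names of probe sets on this array end in _at alone, or in _a_at, _s_at or _x_at where probes match several transcripts or related genes. The 67 with an added letter had a median of 0.55, with 25 higher and 4 lower, and the 23 with _at alone a median of -1.01, with 3 higher and 3 lower. The same split runs along brightness: of 67 probe sets with a mean of at least 1000, 28 rose and 2 fell, and of 23 dimmer ones 0 rose and 5 fell, with a median of -1.09. Among the genes, 13 of the 36 with a mean of at least 1000 rose and 0 fell, and 0 of the 10 dimmer ones rose and 3 fell. No shares over all probe sets or genes of like brightness are given, so the split is not shown to be particular to the family. Of the 7 members that were lower in at least 1 comparison of an injured with an uninjured group, Rps6, Rpl12, Rpl14, Rpl37, Rps25 and Rpl39l were among the dimmer genes and Rpl22l1 was not. The 98 tested probe sets that name several genes were 35 higher and 6 lower, with a median of 0.44.

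**Figure D4:**
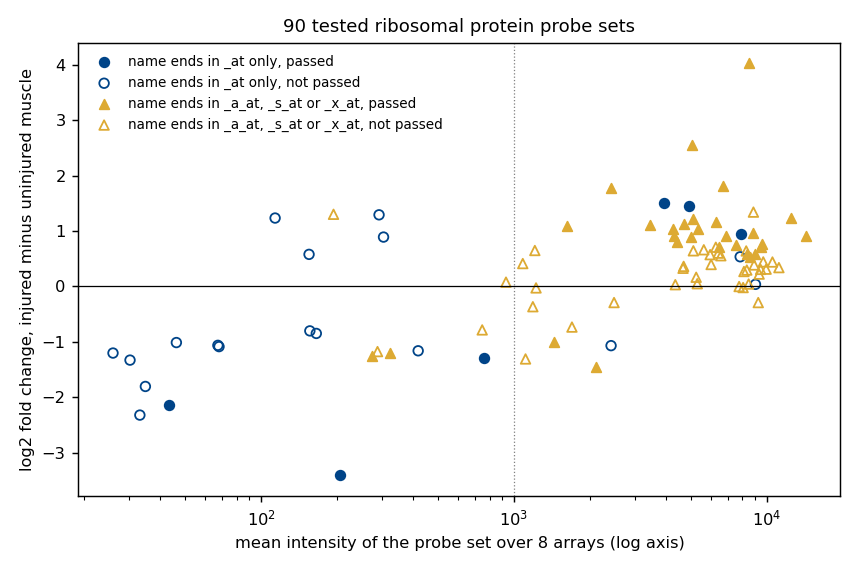
Log2 fold change of injured against uninjured muscle (deposited scaling) for the 90 tested probe sets of the family, by mean intensity on a log axis; filled symbols passed the test and the dotted line marks 1000. Right of the line 28 are called higher and 2 lower, left of it 0 higher and 5 lower; after quantile normalization the median of the 46 genes turns from 0.44 to -0.062.

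Of the 19 genes with at least 2 tested probe sets, 9 had the same sign in all of them in injured against uninjured muscle. In Rpl41, Rpl35 and Rpl7 they were called in opposite directions. For Rpl41, a dimmer probe set than the one described above read 498 and 721 in the marrow, 279 and 305 in uninjured muscle, 162 and 87.9 in injured muscle and 59.4 and 77.3 in transplanted injured muscle. For Rpl35, a dim probe set read 62.2 and 66.4, 63.3 and 88.9, 19.9 and 9.35, and 12.7 and 23.3, against 6651 and 7748, 6674 and 7756, 10775 and 9972, and 9492 and 9665 for the brighter one. For Rpl7, the dimmest of 3 probe sets read 1983 and 2023, 2167 and 1584, 874 and 973, and 934 and 930, while another read 3710 and 3084, 3332 and 2628, 5770 and 8282, and 7734 and 6138. In each gene the dimmer probe set was lower on the injured arrays and the brighter one higher. Rps10 was as wide without opposite calls: its 6 probe sets ran from -1.81 to 2.56, and 2 rose. Rpl27, with 3, ran from -0.37 to 1.45, and 1 rose. Rps29, with 3, ran from 0.31 to 1.24, and 2 rose. Rps24 had opposite calls too in transplanted injured muscle against bone marrow. For Rpl35 the dim probe set was the exception, since the other 5 of its 6 probe sets were called higher in injured against uninjured muscle. Of the 4 for Rpl41, the brightest was higher, a second did not pass at 0.60, and the other two were below 0 with 1 of them called. For Rpl7 the brightest probe set did not pass, at 0.40, and the one that rose had 1.22. For Rps24, 2 of 6 rose while the brightest did not pass.

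**Figure D5:**
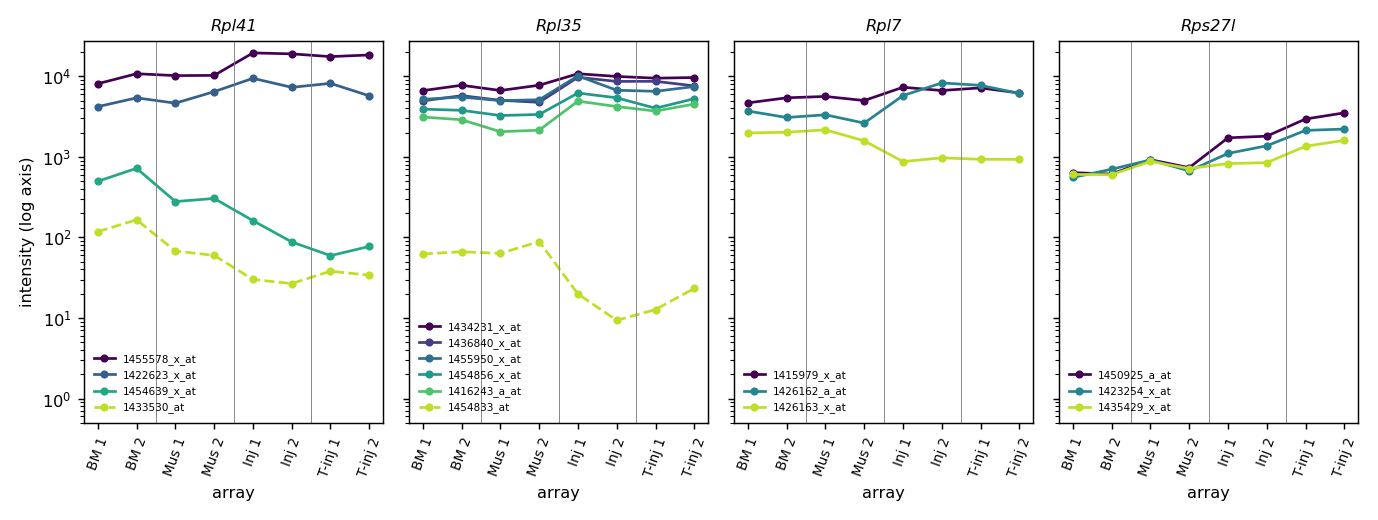
Intensity (log axis) of every tested probe set of Rpl41, Rpl35, Rpl7 and Rps27l on the 8 arrays (BM bone marrow, Mus uninjured, Inj injured, T-inj transplanted injured muscle; dashed where the name ends in _at alone). Lines of Rpl41, Rpl35 and Rpl7 part on the injured arrays under the deposited scaling, whereas the 3 of Rps27l are all highest in transplanted injured muscle.

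Other genes of the translation machinery were read from lists of their own. Of 28 measured translation factors 7 rose and 5 fell in injured against uninjured muscle, with a median of 0.60, where 8.77% of all genes rose, 15.1% fell and the median was -0.25. After quantile normalization 4 rose and 4 fell, with a median of 0.40, and after cyclic loess 3 and 6, with 0.29. With the deposited scaling Eef1a1, which brings transfer RNAs to the ribosome, rose by 0.74 (adjusted p = 0.0104), and Tpt1, whose message has a TOP tract, by 0.87 (adjusted p = 0.00894). Eif4g2, a scaffold for cap-independent initiation, fell from 4620 ± 39.4 to 1745 ± 304 (SD, n = 2), a change of -1.41 (adjusted p = 0.0052), and Eif5 changed by -1.17 (adjusted p = 0.00557). Of 40 genes of ribosomal RNA synthesis and ribosome assembly 2 rose and 4 fell in that comparison, where 8.77% of all genes rose and 15.1% fell. Counts this small are not read as a difference from those shares. The median of these 40 genes was -0.020. After quantile normalization, as after cyclic loess, 3 rose and 4 fell. Lsg1, which releases an export factor from new large subunits, rose by 2.77, and Nmd3, that export factor, changed by -1.46. Against bone marrow 2 assembly genes were higher and 10 lower in injured muscle, and 1 higher and 11 lower in transplanted injured muscle. Of all genes, 12.6% and 12% were higher and 17.2% and 19.5% lower. These counts too are not read as a difference from those shares. After quantile normalization the assembly genes that were lower numbered 8 and 6, with no shares of all genes given under that scaling.

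The mitochondrial ribosomal proteins, which build a separate ribosome inside mitochondria, gave 10 higher and 2 lower of 74 in injured against uninjured muscle and 20 and 2 in transplanted injured against uninjured muscle. The shares of all genes were 8.77% and 15.1% in the first comparison and 10.5% and 20.8% in the second. After quantile normalization the mitochondrial counts were 10 and 2, and 21 and 2. Mrpl37 rose by 2.24 and Mrps15 by 1.36, while Mrpl44 changed by -1.99. Of 13 measured regulators of ribosome production 2 rose and 3 fell in injured against uninjured muscle, too few to set against the 8.77% and 15.1% of all genes; quantile normalization gave the same counts. Mdm2 and Eif4ebp1, an inhibitor of cap-dependent initiation, were the 2 that rose, the latter by 1.69, and Myc (-1.31), Mycn (-2.70) and Eif4ebp2 (-1.64) fell. Fau, which encodes a small subunit protein under another name, was not in the symbol rule. It differed by 0.97 in injured against uninjured muscle and did not pass (adjusted p = 0.082).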

How the data were processed

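RNA of sorted cells was measured on 8 Affymetrix mouse 430A arrays, 2 in each of 4 groups. The deposited values are intensities on a linear scale, 1 per probe set; per the submitters' processing notes the software was GCOS, and how probes were summarised and background subtracted is not given in the sources used here. All values under 1 were set to 1 and log2(intensity + 4) was used. Of 22626 probe sets without controls, 16285 entered the tests because at least 2 arrays reached 38.4, the 40th percentile; among them were 46 members. Group means were fitted on all 8 arrays in limma 3.58.1 under R 4.3.3 (two-sided, moderated with an intensity trend, 4 residual degrees of freedom, p-values adjusted by Benjamini and Hochberg within a comparison, threshold 0.05) and tested on simulated data. With so few arrays the precision is limited, and the median SE was 0.45.

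The members, lists and tests were chosen with earlier results of these data known. Named genes were up to 8 per direction and comparison with the smallest p among calls, the stalk, 5S particle, Diamond-Blackfan and paralogue genes, Rps6 and Rpsa, the 3 brightest and 3 dimmest, the 4 most and least spread, those with opposing probe sets, and up to 4 of each companion list. Rps3, Rps14 and Fau, and Rps25 where the transplant groups are compared, were chosen after their values were seen. A fold is given as "at least", against 38.4, where neither array of the lower group reached that value. Deviations of same-numbered arrays from their group means correlated at 0.313 for bone marrow with uninjured muscle and between -0.032 and 0.003 otherwise, so the numbers were not taken as pairs. Alternatives were quantile, cyclic loess and median-centred scaling, 2 other pseudocounts, no filter or a filter at 111, other ways to choose probe sets, array weights, no trend, other array sets and a replicate block.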

Additional observations from a re-analysis of the deposited data

How the results depend on the processing

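The 68 member calls were recomputed under up to 22 settings: 1142 results kept direction and side of the threshold, 272 kept direction and lost the threshold, and 27 turned direction; causes were not tested. After quantile normalization the members called higher and lower were 6 and 6 for injured against uninjured muscle, 3 and 8 for injured muscle against marrow, 4 and 12 for transplanted injured muscle against marrow, 5 and 10 against uninjured muscle, and 1 lower for uninjured muscle against marrow, with medians of -0.062, -0.22, -0.20 and -0.088 for the first 4. After cyclic loess they were 8 and 5, 4 and 8, 4 and 12, and 7 and 8, with medians of 0.023, -0.14, -0.16 and 0.021, and -0.20 for uninjured muscle against marrow. Median centring gave -0.19 for that comparison, 0.59 for injured against uninjured muscle, and 21 and 3 with a median of 0.64 for transplanted injured against uninjured muscle.

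With the mean of a gene's probe sets, injured muscle against marrow had 9 higher and a median of 0.22, and transplanted injured muscle against marrow 6 and 7 with 0.071. With probe sets ending in _at alone, medians were -0.21 (uninjured muscle against marrow), -1.01 (injured against uninjured), -0.90 (injured against marrow), -0.58 (transplanted against marrow) and -0.67 (transplanted against uninjured), with 3, 4, 3 and 3 higher in the last 4, 7 lower for transplanted against marrow, and 11 called by the F test. With members at a mean of 1000 or more, chosen after seeing the data, 0 were lower in both untransplanted injured comparisons and 1 in both transplanted ones, with a median of 0.40 for transplanted against marrow. Array weights gave 1 higher for transplanted against untransplanted injured muscle and 3 lower for transplanted against uninjured muscle. Without the intensity trend 7, 8 and 6 were higher for injured against uninjured, injured against marrow and transplanted against uninjured, and the F test called 10. With only the 4 arrays compared, 2 were higher and 1 lower for transplanted against untransplanted injured muscle, and 1 lower for transplanted against uninjured. The replicate block is a pairing that the arrays bear out at most for marrow with uninjured muscle, where deviations correlated at 0.313. With this block, injured against uninjured muscle had 12 higher and 3 lower, and injured against marrow 16 and 4. Transplanted against marrow had 9 and 4, transplanted against uninjured 11 and 4, and the F test called 18.

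Leaving out 1 array at a time gave these ranges. Uninjured muscle against marrow had 0 higher, 0 to 2 lower and medians of -0.15 to 0.13. Injured against uninjured had 3 to 19 higher, 1 to 5 lower and 0.35 to 0.52. Transplanted against untransplanted injured had 0 and 0, with -0.21 to -0.12. Injured against marrow had 5 to 20, 2 to 6 and 0.24 to 0.53. Transplanted against marrow had 6 to 15, 3 to 5 and 0.075 to 0.40. Transplanted against uninjured had 6 to 14, 1 to 5 and 0.16 to 0.36. The F test called 12 to 25.

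The turned calls were these. After quantile normalization Rpl35 gave -0.018 for injured against uninjured muscle, Rpl35, Rpl38, Rplp2 and Rps28 gave -0.11, -0.041, -0.18 and -0.084 for injured against marrow, and Rpl41 -0.051 for transplanted against marrow. After cyclic loess Rpl35, Rpl38, Rplp2 and Rps28 gave -0.11, -0.016, -0.060 and -0.0090 for injured against marrow. With the mean of probe sets Rpl41 gave -0.20 for injured against uninjured, -0.65 for injured against marrow, -0.86 for transplanted against marrow and -0.42 for transplanted against uninjured, and Rps10 and Rps24 gave -0.022 and -0.031 for injured against marrow. With _at probe sets alone, in the same order of comparisons, Rpl41 gave -1.06, -2.15, -1.85 and -0.76, Rps10 gave -1.81, -2.02, -1.38 and -1.17, Rpl35 gave -2.15 and -1.94 in the first 2, and Rps24 gave -2.28 for injured against marrow.

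The deposited table gives no detection calls, so whether a dim member was above background is unknown. This touches the 11 members with a mean under 1000, which hold most of the calls that were lower.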
